A study of Mus musculus with 8 samples.

Results

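The AP-1 and EGR transcription factors described here are 10 genes, Fosl2, Fos, Fosb, Jun, Junb, Jund, Batf, Egr2, Egr1 and Egr3, of the 37411 genes in a table of RNA-seq read counts. They were taken by symbol, without a cutoff on their values, but with earlier results of these data known. Of all genes, 17570 had a count and 10000 passed a filter on low counts and were tested, among them 9 of the 10 factors (Egr3 did not pass). The RNA came from congenic CD4+ effector T cells, about 10000 per sample, sorted 6 weeks after their transfer into Rag1-/- hosts on a C57BL/6 background. Such hosts cannot form lymphocytes with rearranged receptors but keep their innate immune cells. The transferred cells carried an LMPd retrovirus with a short hairpin against Mdr1 (shMdr1), the product of the xenobiotic transporter gene Abcb1a, or the control hairpin shCD8, aimed at CD8. They were recovered from the small intestine or the spleen of hosts that lacked Asbt (Slc10a2), the ileal bile acid transporter (Asbt-/-), or had it (Asbt+/+). Each combination of tissue, hairpin and host had 1 library, so that 8 libraries gave 4 per tissue, 4 per hairpin and 4 per host genotype. The labels do not say which libraries came from separate animals, so each p-value sets a difference against the library-to-library spread, part of which may be technical.

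AP-1 is a dimer of leucine zipper proteins. FOS proteins pair with JUN proteins, and BATF pairs with JUN proteins and with IRF4 or IRF8 on composite sites. The EGR proteins are zinc finger factors that bind GC-rich sites. In T cells many of these genes are switched on within minutes of antigen receptor signals through the MAP kinase and calcium routes, and handling of tissue can also switch on Fos, Jun and Egr1. BATF and FOSL2 are known in mouse T cells for opposing parts in the Th17 programme, and EGR2 and EGR3 for restraint of T cell activation.

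The genomic stretches just before the start sites are shown for the 2 genes that passed the tissue test below, Fosl2 and Egr2, and for their relatives Fosb and Fos. Sequences are from RefSeq on GRCm38.p6, 5′ to 3′ on the gene's strand. Windows of the 250 bases before the start were matched for 8 of the 10 factors, all but Egr1 and Egr3. Capitals mark an EGR-type motif, GCGNGGGCG, in Fosl2 and Fosb, and the letters TGACG, part of a cAMP response element, in Fos. Egr2 had 5 listed windows. The window used is shown up to the first annotated exon and held no match, and matches in its other windows are not given. The Fosl2 stretch lies before the RefSeq start but within an exon of the GENCODE annotation.
Fosl2, chr5:32136383-32136412, plus strand: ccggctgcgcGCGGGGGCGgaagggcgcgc
Fosb, chr7:19310076-19310105, minus strand: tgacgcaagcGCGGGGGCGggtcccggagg
Fos, chr12:85473640-85473889, plus strand: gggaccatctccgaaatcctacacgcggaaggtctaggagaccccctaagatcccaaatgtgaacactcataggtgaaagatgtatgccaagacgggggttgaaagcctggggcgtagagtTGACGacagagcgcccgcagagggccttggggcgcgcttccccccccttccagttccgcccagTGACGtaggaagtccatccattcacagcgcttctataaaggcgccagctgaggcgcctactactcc
Egr2, chr10:67535249-67535474, plus strand: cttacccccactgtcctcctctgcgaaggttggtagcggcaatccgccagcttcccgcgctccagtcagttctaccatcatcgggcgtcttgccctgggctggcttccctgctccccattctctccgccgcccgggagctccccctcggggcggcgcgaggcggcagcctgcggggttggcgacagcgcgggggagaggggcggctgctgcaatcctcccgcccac

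The EGR-type motif began 79 bases before the Fosl2 start and 50 bases before the Fosb start, and 2 of the 8 windows held it. Of 32817 promoter windows of the same length, 4.70% held it on either strand. The letters TGACG were found in 4 of the 8 windows, Fos, Fosb, Junb and Batf, against 17.7% of all windows. In Fos they began 129 and 66 bases before the start. No window of the 8 held the full element TGACGTCA (1.55% of all windows), the AP-1 site TGANTCA (6.75%) or a CArG box (1.47%), the site of serum response factor. A TGACGTCA match would also hold TGACG. These matches describe letters only, within 250 bases before the start, and sites farther upstream were not searched.

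Library totals ran between 1685225 and 2767105 counts. Genes with a count numbered 8456 in shCD8 small intestine Asbt+/+, against 11345 to 13184 in the other 7 libraries. Mitochondrial genes took 18.3% of the counts of shMdr1 small intestine Asbt+/+, 26.8% of shMdr1 spleen Asbt-/- and 17.6% of shCD8 spleen Asbt-/-, against 6.63 to 8.62% elsewhere. Abcb1a, the hairpin's target, was lower with shMdr1 in 3 of the 4 pairs of libraries alike in tissue and host. In the small intestine of Asbt+/+ hosts the order went against the labels, at 13.6 CPM (counts scaled to a common library total, here without TMM factors) in the library labelled shMdr1 and 8.69 CPM in the library labelled shCD8. Cd8a, the target of the control hairpin, had 89.0 CPM in the library labelled shMdr1 of that pair and no count in the library labelled shCD8. The latter library also had no count for 49 of the 3151 genes with at least 20 CPM in all other 7 libraries. In the other pairs, Cd8a with shMdr1 and with shCD8 was 25.3 and 24.0 CPM (small intestine Asbt-/-) and 13.8 and 3.28 CPM (spleen Asbt+/+). Neither spleen Asbt-/- library had a Cd8a count. The cells were sorted as CD4+, so Cd8a is a weak check of the hairpin labels. Slc10a2 had at most 3 counts in any library, so it checks no host label. All 12 CD4 T cell markers were detected in both tissues, and none passed the tissue test by edgeR.

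Fosl2 was the factor that differed most between the tissues: it was higher in the small intestinal libraries, and so was Egr2. The Egr2 call held in only 1 of the 8 fits that left out 1 library. Of the close relatives of Fosl2 and Egr2, Fos was below its spleen value in every pair and Egr1 overlapped between tissues. Jun and Batf averaged higher in the small intestine, but did not pass the test, nor did Junb, Jund or Fosb. By edgeR's quasi-likelihood test with adjustment over all genes, 2 of the 9 tested factors passed at 0.05, both higher, where 0.62% of all genes tested passed, 0.51% as higher and 0.11% as lower. An unadjusted p below 0.05 was found for 5 of the 9 factors and for 8.45% of all genes. By DESeq2 3 factors passed, Fos being lower, where 2.62% of the 9806 genes with an adjusted p from that tool passed, and by limma-voom only Fosl2 did, where 0.73% passed.

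**Figure D1:**
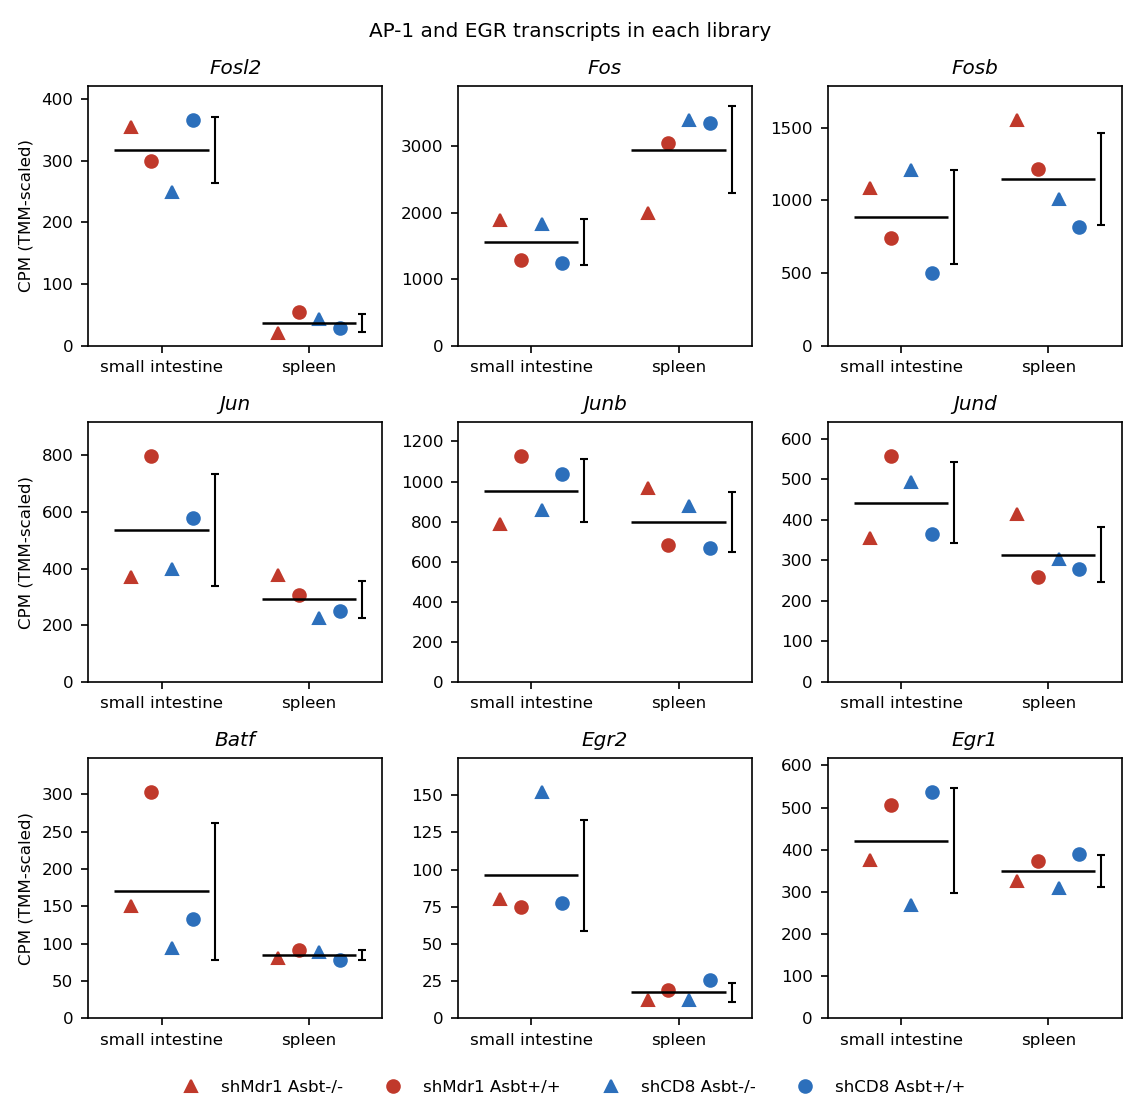
TMM-scaled CPM (linear axes from 0) of the 9 tested factors, with small intestine left of spleen, each point 1 library, lines for the mean of 4 libraries and bars for 1 SD. Fosl2 lies between 249.8 and 366.4 CPM in the small intestine and between 20.9 and 54.9 CPM in the spleen, while Fosb, Junb and Egr1 overlap between tissues.

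Among the FOS genes, Fosl2, which encodes the Fos-related antigen FRA2, had 355.0, 300.4, 249.8 and 366.4 CPM in the small intestine (shMdr1 Asbt-/-, shMdr1 Asbt+/+, shCD8 Asbt-/- and shCD8 Asbt+/+), scaled with TMM factors. The spleen libraries in the same order had 20.9, 54.9, 43.1 and 29.2 CPM. The tissues were far apart, and the lowest small intestinal library lay well above the highest spleen library. Means were 318 ± 53.8 CPM in the small intestine and 37.1 ± 15.03 CPM in the spleen (SD, n = 4 each), a log2 fold change of 3.10 ± 0.34 (SE) with an adjusted p of 0.00224 by edgeR. It had the 7th smallest p of all genes tested. These are bulk samples, so a larger share of cells with the transcript and more transcript per cell cannot be told apart.

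Fos, the immediate early AP-1 subunit, had 1887, 1290, 1825 and 1236 CPM in the small intestine, against 1999.9, 3053, 3398 and 3350 CPM in the spleen, in the same library order. The tissues did not overlap, but the shMdr1 spleen Asbt-/- library lay close to the highest small intestinal ones. The log2 fold change was -0.93 ± 0.31 (SE), with an adjusted p of 0.375 by edgeR and of 0.0225 by DESeq2, 1 of 16 alternatives and the single one in which Fos passed. Fosb, a partner of JUN proteins that is induced much like Fos, had 1087, 743, 1211 and 503 CPM in the small intestine and 1553, 1215, 1006 and 814 CPM in the spleen. Its groups overlapped, and its log2 fold change was -0.40 ± 0.27 with an adjusted p of 0.764 by edgeR.

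The make-up of FOS transcripts was compared per length, as CPM per kilobase of the longest coding transcript. The sum covered Fosl2, Fos and Fosb, and left out Fosl1. Fosl2 held 4.39, 5.38, 3.12 and 7.23% of the summed FOS level in the small intestinal libraries, against 0.235, 0.473, 0.350 and 0.247% in the spleen libraries. Fos still held most of it in every library, 70.7 to 75.6% in the small intestine and 69.6 to 87.9% in the spleen. Fosb held 17.1 to 26.1% in the small intestine and 11.9 to 30.1% in the spleen. The summed FOS level was 1237, 855, 1224 and 775 CPM per kilobase in the small intestine, below each of the 1363, 1778, 1884 and 1809 CPM per kilobase in the spleen.

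**Figure D2:**
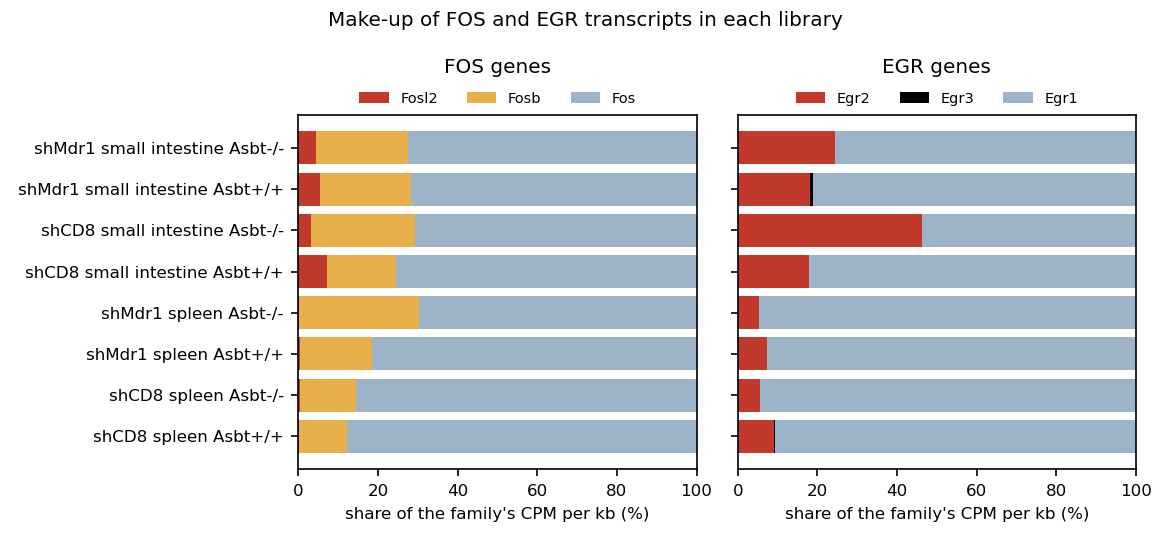
Share of each FOS gene (left) and each EGR gene (right) in the summed CPM per kilobase of the plotted genes of its family, in percent. Fosl1 and Egr4 are left out, and each bar is 1 library, with small intestine above spleen. Fosl2 takes 3.12 to 7.23% of the FOS level in the small intestine and at most 0.473% in the spleen, and Egr2 takes 17.97 to 46.2% of the EGR level in the small intestine and at most 9.10% in the spleen.

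Among the JUN genes, the obligate partners of FOS proteins, none passed the tissue test. Jun had 370.1, 797.9, 398.3 and 580.5 CPM in the small intestine and 377.9, 307.2, 227.0 and 251.9 CPM in the spleen. The tissues overlapped only through the shMdr1 Asbt-/- pair, in which the spleen library lay just above the small intestinal one. The log2 fold change was 0.85 ± 0.27 (SE), with an adjusted p of 0.356 by edgeR. Junb, the most abundant JUN gene per length, averaged 953 ± 157 CPM in the small intestine and 799 ± 149 CPM in the spleen (SD, n = 4 each), and Jund, which is often expressed in resting cells, 442 ± 98.9 and 314 ± 68.8 CPM in the same tissues. Both overlapped between tissues, with adjusted p-values of 0.851 for Junb and 0.653 for Jund by edgeR.

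Batf, the AP-1 factor needed for Th17 differentiation in mice, had 150.6, 303.0, 93.4 and 133.3 CPM in the small intestine, against 80.6, 91.6, 88.6 and 78.2 CPM in the spleen. The spleen libraries were close together and all lay below the small intestinal ones, but the lowest small intestinal library exceeded the highest spleen library by little. The log2 fold change was 0.87 ± 0.31 (SE), with an adjusted p of 0.418 by edgeR. The spread among small intestinal libraries was wide, with a mean of 170.1 ± 91.8 CPM there and 84.8 ± 6.34 CPM in the spleen (SD, n = 4 each).

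Among the EGR genes, Egr2 had 80.0, 74.5, 152.0 and 77.7 CPM in the small intestine, against 12.3, 19.1, 12.0 and 25.8 CPM in the spleen. All small intestinal libraries lay above all spleen libraries, and shCD8 small intestine Asbt-/- stood above the other 3 of its tissue. The means were 96.1 ± 37.4 CPM in the small intestine and 17.3 ± 6.55 CPM in the spleen (SD, n = 4 each), a log2 fold change of 2.47 ± 0.42 (SE) with an adjusted p of 0.0269 by edgeR. The call was lost in 7 of the 8 fits that left out 1 library, with adjusted p-values of 0.0693 to 0.151 and log2 fold changes of 2.16 to 2.65. Without shCD8 small intestine Asbt+/+ it held, with a log2 fold change of 2.73 and an adjusted p of 0.00230 by edgeR. Over the whole table, 62 genes passed with all libraries, 11 to 36 in those 7 fits and 137 in the fit where Egr2 held.

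Egr1, the most abundant EGR gene, had 374.8, 506.4, 267.8 and 536.3 CPM in the small intestine and 325.0, 372.5, 309.3 and 388.7 CPM in the spleen. The groups overlapped, with a log2 fold change of 0.23 ± 0.23 (SE) and an adjusted p of 0.847 by edgeR. The summed EGR level per kilobase covered Egr2, Egr1 and Egr3, and left out Egr4. Egr2 made up 24.4, 18.1, 46.2 and 17.97% of it in the small intestine, against 5.42, 7.20, 5.53 and 9.10% in the spleen. Egr3, a close relative of Egr2, was barely detected, with 7 counts over the 4 small intestinal libraries and 3 over the 4 spleen libraries, and was not tested. A library without an Egr3 count allows a level of up to 1.18 to 1.85 CPM on the TMM scale, which is the level of 3 counts and covers counting error only.

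Per length, the factors spanned a wide range of levels. In the small intestine the order of mean CPM per kilobase was Fos (739.9), Junb (527), Jund (265), Fosb (234), Batf (178), Jun (168), Egr1 (94.0), Fosl2 (48.6), Egr2 (32.4) and Egr3 (0.270). Neighbours in that order overlapped between libraries except at the steps below Junb, Egr1 and Egr2. In the spleen the order was Fos (1399), Junb (442), Fosb (303), Jund (188), Jun (91.3), Batf (88.8), Egr1 (77.8), Egr2 (5.84), Fosl2 (5.67) and Egr3 (0.0810). There the steps below Fos, Jund, Egr1 and Fosl2 separated neighbours, and the others overlapped. Fosl2 and Egr2 were thus among the 3 lowest factors per length in both tissues.

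Each small intestinal library was also set against the spleen library of the same hairpin and host. Fosl2 was higher in 4 of 4 pairs, by 17.0-fold (shMdr1 Asbt-/-), 5.47-fold (shMdr1 Asbt+/+), 5.80-fold (shCD8 Asbt-/-) and 12.5-fold (shCD8 Asbt+/+). Egr2 was higher in 4 of 4 pairs, by 6.50-fold, 3.89-fold, 12.7-fold and 3.01-fold in that order. The pair with the largest Egr2 difference was not the pair with the largest Fosl2 difference. Batf was higher in 4 of 4 pairs, with log2 ratios of 0.08 to 1.72, and Fos lower in 4 of 4, with log2 ratios of -1.44 to -0.08. Among all genes tested, 8.3% were higher and 11.8% lower in 4 of 4 pairs. Of the 9 tested factors, 3 lay above and 1 below the spleen in CPM without overlap, where 3.39% of all genes lay above and 4.68% below, or 8.07% in either direction.

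**Figure D3:**
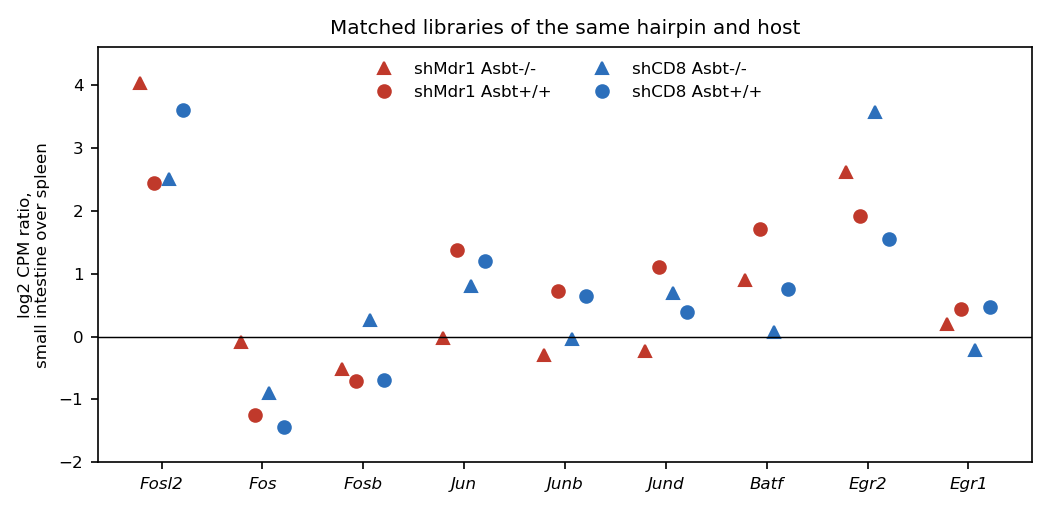
CPM ratios on a log2 scale of each factor in the 4 pairs of small intestine and spleen libraries alike in hairpin and host, each point 1 pair, with a prior count of 2 and no test. Fosl2 lies between 2.43 and 4.03 and Egr2 between 1.56 and 3.57, and all 4 Fos points lie below 0.

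The hairpin comparison asks whether cells with shMdr1 differed from cells with shCD8. No factor passed it. By edgeR 0 of 9 factors passed and none had an unadjusted p below 0.05, where 0.0% of all genes passed and 2.99% had such a p. DESeq2 gave an adjusted p to 1276 genes, 8 of the 9 factors among them, and called 0 factors and 4 genes (0.313%). By limma-voom 0 factors and 0.0% of all genes passed. The difference with the smallest p was that of Batf, which averaged 156 ± 102 CPM with shMdr1 and 98.4 ± 24.1 CPM with shCD8 (SD, n = 4 each), a log2 fold change of 0.50 ± 0.31 (SE). Fosl2 had a log2 fold change of 0.07 ± 0.31 and Egr2 of -0.43 ± 0.40, and every adjusted p was 0.999 by edgeR. The median log2 fold change was 0.09 for the 9 factors and 0.09 for all genes tested.

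The host comparison asks whether cells from hosts without Asbt differed from cells from hosts with it. By edgeR 0 of 9 factors passed, where 0.0% of all genes passed, and DESeq2 and limma-voom called 0. DESeq2 called 4 of the 3408 genes with an adjusted p (0.117%), and limma-voom 0.0% of all genes. Fosb alone had an unadjusted p below 0.05 by edgeR, at 0.0376 with an adjusted p of 0.996, where 2.71% of all genes had such a p. It averaged 1214 ± 241 CPM in Asbt-/- hosts and 819 ± 296 CPM in Asbt+/+ hosts (SD, n = 4 each), and was higher in 4 of 4 pairs alike in tissue and hairpin. Egr1 averaged 319 ± 44.2 CPM in Asbt-/- hosts and 451 ± 82.5 CPM in Asbt+/+ hosts, lower in 4 of 4 pairs, with an adjusted p of 0.996 by edgeR. Among all genes tested, 8.74% were higher and 5.39% lower in 4 of 4 host pairs. The median log2 fold change was -0.12 for the 9 factors and 0.11 for all genes.

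**Figure D4:**
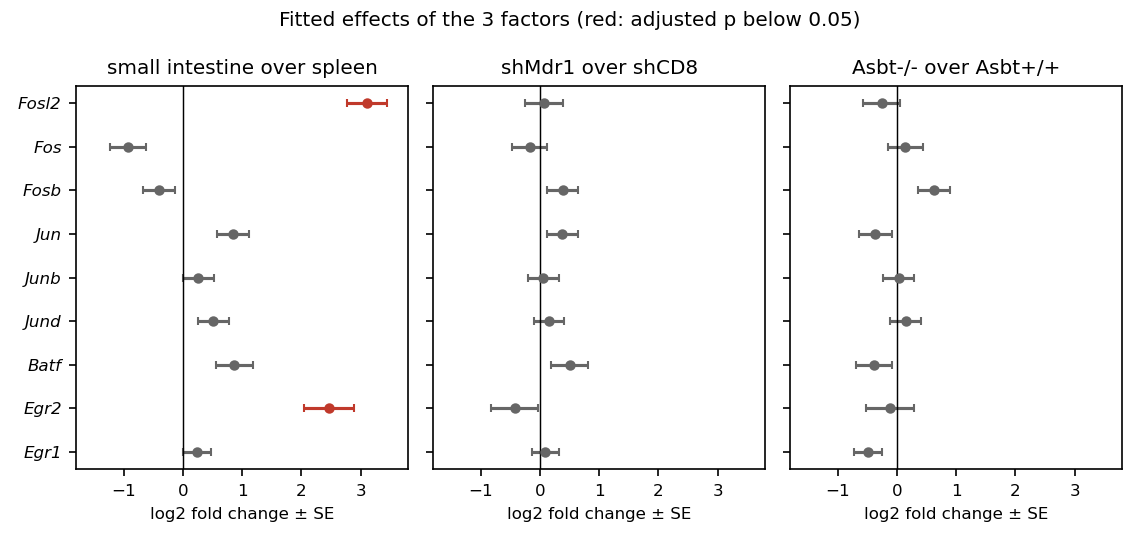
Fitted log2 fold changes of the 9 tested factors for tissue, hairpin and host, with bars of 1 SE, and red for an adjusted p below 0.05 by edgeR. Fosl2 at 3.10 and Egr2 at 2.47 pass for tissue, and no factor passes for hairpin or host.

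Whether the hairpin or host effect differed between tissues, or the hairpin effect between hosts, was tested with interaction terms. By edgeR 0 of 9 factors passed in each of the 3 tests, where 0.0% of all genes passed in each, and no factor had an unadjusted p below 0.05. Of all genes, 1.7% had such a p for the hairpin effect between tissues, 4.31% for the host effect between tissues and 1.19% for the hairpin effect between hosts. DESeq2 and limma-voom called 0 factors in each. In the order of those tests, DESeq2 called 1 of 10000 genes (0.01%), 21 of the 7285 with an adjusted p (0.288%) and 0.0%, and limma-voom 0.0%, 0.0% and 0.03% of all genes. The smallest p of the host effect between tissues was that of Junb, at 0.0811, with a log2 difference of -0.85 ± 0.42 (SE) and an adjusted p of 0.937 by edgeR. Egr2 had a log2 difference of 1.41 ± 0.71 in the same test, with the same adjusted p. The same log2 difference of Egr2 was 1.85 without shMdr1 small intestine Asbt-/- (adjusted p 0.00902 by edgeR) and without shMdr1 small intestine Asbt+/+ (0.00881), but these fits had 1 residual degree of freedom, and 33.6% and 33.8% of all genes passed in them. Batf had the smallest p of the hairpin effect between tissues, with a log2 difference of 0.89 ± 0.50. Without shCD8 small intestine Asbt-/- it was 1.14, with an adjusted p of 0.0483 by edgeR, in a fit in which 29.9% of all genes passed. These shares are above the 1 of 9 factors that passed in each.

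Genes around these factors were read from 7 lists, chosen with earlier results of these data known. Over all genes tested, 0.62% passed the tissue test by edgeR. Of the other AP-1 and bZIP genes, 0 of 11 tested passed the tissue test. Those with the smallest p were Nfil3, a repressor of the bZIP class, at a log2 fold change of 1.10 and an adjusted p of 0.370, and Atf3, a stress-induced factor, at 0.90 and 0.521. Of the BATF and AP-1 partner factors, 0 of 11 passed. Stat3, which drives Th17 genes, had a log2 fold change of 1.23 ± 0.29 (SE) and an adjusted p of 0.128 by edgeR. Irf4, the partner of BATF, averaged 147 ± 99.2 CPM in the small intestine and 44.0 ± 2.31 CPM in the spleen (SD, n = 4 each), with an adjusted p of 0.281 by edgeR. The median log2 fold changes of these lists were 0.15 and 0.32, beside -0.17 for all genes tested and 0.51 for the 9 factors.

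Upstream of the factors, 0 of 19 tested genes of the MAP kinase and serum response factor route passed the tissue test, and their median log2 fold change was -0.20. Mkl2, a coactivator of serum response factor, had a log2 fold change of -2.25 with an adjusted p of 0.712 by edgeR. Downstream and alongside, 4 of 25 feedback and immediate early genes rose and 0 fell, where 0.51% of all genes tested rose and 0.11% fell. The median log2 fold change of this list was 0.49. Those that rose were the orphan receptors Nr4a3, Nr4a1 and Nr4a2 and the MAP kinase phosphatase Dusp10. Dusp10, which acts on p38 and JNK, averaged 117 ± 54.0 CPM in the small intestine and 39.7 ± 18.7 CPM in the spleen (SD, n = 4 each), with an adjusted p of 0.0376 by edgeR.

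Of the EGR family, its corepressors and genes bound by EGR2 in anergic mouse T cells, 1 of 11 tested rose in the small intestine, the costimulatory receptor Tnfrsf9, and 0 fell. Its log2 fold change was 2.49 with an adjusted p of 0.0186 by edgeR, and the median of the list was 0.52. Of 15 tested genes with described AP-1 sites in T cells, 4 rose and 0 fell. Over all genes tested, 0.51% rose and 0.11% fell. The 4 that rose were the cytokine Il17a, the inhibitory receptor Ctla4, the costimulatory receptor Icos and the granule protease Gzmb. The median log2 fold change of the 15 was 0.99, and 13 were above 0, a share that was not counted over all genes. For hairpin and host, 0 genes of any of the 7 lists passed by edgeR.

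**Figure D5:**
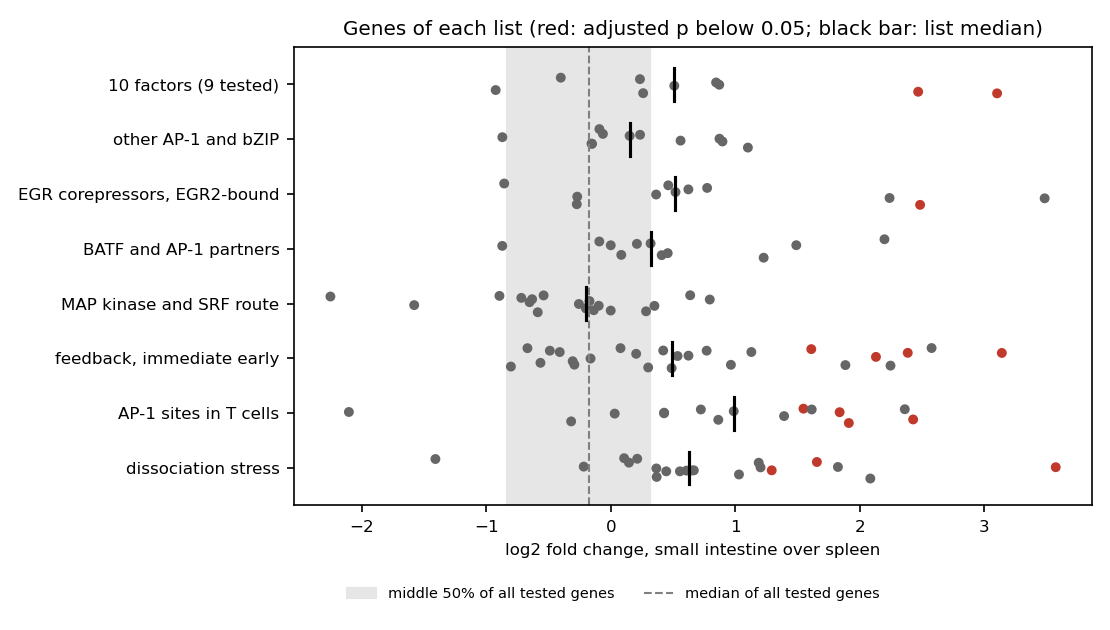
Fitted small intestine over spleen log2 fold changes of the 9 tested factors and of the tested genes of each list, each point 1 gene, with red for an adjusted p below 0.05 by edgeR, black bars for list medians, and a dashed line and shading for the median and interquartile range of all genes tested. The median is 0.51 for the factors, 0.99 for genes with AP-1 sites and -0.20 for the MAP kinase and serum response factor route.

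Several other measures moved with tissue. Of 20 tested stress genes described after tissue dissociation, 3 rose in the small intestine (Mt2, Hspe1 and Sqstm1) and 0 fell. Over all genes tested, 0.51% rose and 0.11% fell. The summed CPM of the 21 such genes in the table was 13154, 10004, 15624 and 8721 in the small intestine, against 7845, 6309, 8512 and 7550 in the spleen, with no overlap. The library order is shMdr1 Asbt-/-, shMdr1 Asbt+/+, shCD8 Asbt-/- and shCD8 Asbt+/+. In each pair alike in tissue and hairpin, the sum was also higher in the Asbt-/- host. For host, 0 of the 20 tested genes passed by edgeR. Tissue and the handling needed to isolate cells from it cannot be told apart in this design.

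Markers of other cells were present in both tissues. For comparison with the counts below, 0.51% of all genes tested rose in the small intestine and 0.11% fell by edgeR. The summed CPM of 14 macrophage, monocyte and dendritic cell markers was 563 to 1154 in the small intestine and 180.4 to 506 in the spleen, 2 of 10 tested rose, and Flt3 was at 0 in all small intestinal libraries. The sum of 13 epithelial markers was 48.7 to 436 CPM in the small intestine and 0 to 123 CPM in the spleen, and 1 of 8 tested rose. Krt20 and Muc2 were at 0 in all small intestinal libraries, and Fabp1 and Defa24 in all spleen libraries. The 11 neutrophil markers summed to 10.7 to 193 CPM in the small intestine and 859 to 7574 CPM in the spleen, and 5 of 7 tested fell. Csf3r, Cxcr2 and Retnlg were at 0 in all small intestinal libraries, and Cxcr2 in all spleen libraries too. The 8 listed erythroid markers, 7 of them in the table, summed to 38.3 to 105 CPM in the small intestine and 1096 to 41578 CPM in the spleen, and 3 of 6 tested fell. The part of these cells in the factors' values was not tested.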

How the data were processed

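The authors deposited whole-number read counts of each gene in each library. The submitters' processing notes name TopHat, HTSeq, DESeq2 and the build mm9. What each tool did, its version, the gene annotation and whether counting used strand are not given in the sources. Counts of overlapping or antisense genes are therefore uncertain. A SMART-Seq v4 ultra low input kit and a NEBNext Ultra II kit were used, per the labels' protocols. The hairpin was read from the sample titles, because the retrovirus label names shMdr1 for every library.

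The filterByExpr function kept 10000 genes. TMM factors scaled the counts, which were fitted with edgeR 4.0.16 (R 4.3.3) in an additive quasi-likelihood model of tissue, hairpin and host with 4 residual degrees of freedom. Interaction fits had 2 (between tissues) and 3 (hairpin by host). Adjustment was by Benjamini-Hochberg over all genes tested, at 0.05. The SE follows from the F statistic (log2 fold change over the root of F) and is approximate. CPM per kilobase used the longest coding transcript of GENCODE vM21. Alternatives were DESeq2 1.42.0, limma-voom (limma 3.58.1), DESeq2 size factors, no filter, no covariates, a block per library pair, a prior count of 10, no hemoglobin, mitochondrial and Rn18s-rs5 counts, and fits without single libraries or without both small intestine Asbt+/+ libraries. The interaction fits without single libraries were added after seeing the data. The fits were tested on simulated data.

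All 10 factors were named. From each list up to 4 genes per direction past the tissue test were named by smallest p, or 2 where none passed, and for each tested factor the 2 genes with the nearest profile. The result of 1 gene so chosen is not reported here. The factors and lists were chosen with earlier results of these data known. No 2 libraries had the same counts.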

Additional observations from a re-analysis of the deposited data

Results flagged for a closer look

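Of 34 groups of 4 libraries checked for a value far from the other 3, 2 held one, and chance alone gives some. Egr2 in shCD8 small intestine Asbt-/- was at 152.0 CPM, above 74.5 to 80.0 CPM in the other 3 small intestinal libraries. The summed CPM of the erythroid markers in shMdr1 spleen Asbt-/- was 41578, the highest of the 4 spleen libraries. In the same library Fos, at 1999.9 CPM, and Fosl2, at 20.9 CPM, were lowest of their tissue. Fosb, Jun, Junb and Jund, at 1553, 377.9, 968 and 413.6 CPM, were highest of their tissue there.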

How the results depend on the processing

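Fosl2 passed the tissue test in 16 of 16 alternatives, with log2 fold changes of 2.87 to 3.41. Egr2 passed in 8 of 16, with 2.16 to 3.20, and missed by limma-voom (adjusted p 0.0530). The count of factors past the tissue test was 2, against 3 by DESeq2, 1 by limma-voom and 1 to 2 without single libraries. Without single libraries, 4 to 6 factors did not overlap between tissues. Fewer libraries make separation easier for every gene, and the share of all genes was not counted there, so this range describes no trait of the factors. Over all genes the tissue count of 62 became 165 with no filter, 257 by DESeq2, 39 without both small intestine Asbt+/+ libraries and 11 to 137 without single libraries. The counts of 0 became 9 with no filter and 4 by DESeq2 for hairpin, and 14 with no filter, 4 by DESeq2 and 0 to 4 without single libraries for host. For interactions the counts of 0 became 1 by DESeq2 and 1 to 2921 without single libraries (hairpin between tissues), 21 by DESeq2 and 0 to 3297 (host between tissues), and 3 with no filter, 3 by limma-voom and 0 to 770 (hairpin between hosts). The factors past them were 0 to 1 in the first, 0 to 1 in the second and 0 to 0 in the third. These fits have fewer residual degrees of freedom.

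Signs turned only for values that did not pass. Without both small intestine Asbt+/+ libraries, Junb was -0.17 for tissue, Jund -0.047 for hairpin, and Fos -0.28, Jun 0.090 and Batf 0.011 for host. For host, Junb was -0.0087 with no covariates, and Egr2 0.33 by limma-voom and 0.39 with no covariates. Without single libraries, hairpin log2 fold changes were -0.22 to 0.30 (Fosl2), -0.36 to 0.042 (Fos), -0.091 to 0.19 (Junb), -0.064 to 0.33 (Jund) and -0.047 to 0.20 (Egr1). Host values were -0.51 to 0.010 (Fosl2), -0.031 to 0.38 (Fos), -0.10 to 0.18 (Junb), -0.011 to 0.35 (Jund) and -0.46 to 0.15 (Egr2). The cause was not tested.

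The labels give no replicate numbers to pair libraries by. A block per pair of libraries alike in the other factors kept Fosl2 (adjusted p 0.00311) and Egr2 (0.0448) past the threshold by edgeR. With 1 library per combination, interactions add to the residual spread.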

Other observations

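For each tested factor the genes with the nearest profile over the 8 libraries were taken, by the root mean square difference of centred log2 CPM among 6989 genes with a mean of at least 10 CPM. The libraries share tissue differences and depth, so nearness is a description. Nearest to Fosl2 were Mt2, a metallothionein (0.49), and H2-Aa, an MHC class II chain (0.59), and nearest to Egr2 were H2-Ab1, another MHC class II chain (0.39), and Skil, a brake on SMAD signalling (0.47). H2-Aa and H2-Ab1 are also on the list of macrophage and dendritic cell markers. Mt2 is on the list of stress genes described after tissue dissociation. The other factors had nearer neighbours, on profiles that varied less: Fos had Ppp1r15b (0.13) and Smarcc1 (0.20), Fosb had St3gal6 (0.17) and Cep295 (0.18), and Jun had Slfn2 (0.10) and Traf1 (0.22). Junb had Gpbp1l1 (0.13) and Znrf1 (0.15), Jund had Aes (0.13) and Ly6e (0.15), and Egr1 had Guk1 (0.12) and 3830406C13Rik (0.16). Batf had 1110059G10Rik (0.14) and A230046K03Rik (0.20).

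Among the factors themselves, Junb and Jund had the nearest profiles (0.23), then Junb and Egr1 (0.32) and Jun and Batf (0.35). Fosl2 and Fos were farthest apart (2.07). Fosl2 and Egr2, the pair that passed the tissue test, differed by 0.72.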
